A study of Mus musculus with 1528 samples.

Results

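The receptors, kinases, transcription factor and feedback inhibitors through which macrophages answer IL4 and IL13 were followed in single bone marrow–derived macrophages (BMDMs) by 9 genes, *Il4ra*, *Il13ra1*, *Il2rg*, *Jak1*, *Jak3*, *Tyk2*, *Stat6*, *Socs1* and *Cish*, chosen by name from the 55421 genes of the count table. The cells came from 2 wild-type C57BL/6 mice, were grown from bone marrow in M-CSF and were sorted alive into 4 plates after a stimulation of 24 h. Of the cytokines, used at 10 ng/ml, all cells received IL4 and IL13, and those of the second treatment also TNF. Plates 2 and 3 held cells of mouse 1 and plates 4 and 5 cells of mouse 2, each with both treatments in separate rows, so row and treatment cannot be told apart. No unstimulated cells were analysed here, so the values compare IL4+IL13 with and without TNF, in culture and at the level of mRNA. The labels do not give the age of the mice.

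IL4 binds the IL4Rα chain (*Il4ra*), which then pairs with the common γ chain (*Il2rg*) in the type I receptor or with IL13Rα1 (*Il13ra1*) in the type II receptor. IL13 uses the type II receptor. The γ chain carries the kinase JAK3, IL4Rα carries JAK1, and IL13Rα1 carries TYK2, and these kinases phosphorylate STAT6, which dimerizes, enters the nucleus and drives the genes known as M2 genes in macrophages. SOCS1 and CISH belong to a family of proteins that cytokines induce and that dampen JAK-STAT signalling.

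Of 1524 wells, 1386 were kept, with 200235 to 6122892 fragments on genes per cell. The summed cells of a mouse and treatment held 162260282 to 179757666 fragments. CPM are the fragments of a gene over the summed cells of a mouse or plate, scaled to 1000000 fragments on all genes with TMM, a factor that sets most genes level between sums. Of the 8 macrophage markers, *Csf1r*, *Cd68* and *Adgre1* were detected in 99.0% or more of the cells under either treatment. Others were found in fewer cells and in fewer still with TNF. *Fcgr1* was in 60.5% and 58.6% of cells with IL4+IL13 and in 24.4% and 37.25% with TNF. *Mertk* was in 23.8% and 36.6% against 15.5% and 22.9%. Of the 8 macrophage markers 1 was higher and 5 lower with TNF on 4 of 4 plates, beside 18.7% and 16.8% of all genes. The 8 T and NK cell markers together reached 1.02 to 1.79 CPM. The 6 B cell markers reached 135 and 119 CPM with IL4+IL13 and 38.2 and 22.5 CPM with TNF, of which *Ighm* made up most. The 5 dendritic cell markers summed to 8.36 and 12.3 CPM with IL4+IL13 and to 31.1 and 208 CPM with TNF. *Ccr7* made up most of the sums with TNF (21.4 and 194 CPM) but little of those with IL4+IL13 (0.110 and 0.432 CPM). Without the cells that held a *Ccr7* fragment, the log2 ratio with TNF was 1.41 for *Il2rg* and 2.15 for *Cish*, against 1.44 and 2.27 with all cells. This alternative was chosen after seeing the data. The part that *Ighm* and the 7 neutrophil and progenitor (1.03 to 5.48 CPM), 6 mast cell (2.73 to 10.4 CPM) and 5 fibroblast markers (0.401 to 1.06 CPM) have in the results was not tested.

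The regions upstream of the gene starts are shown for *Il2rg*, the receptor chain that differed most between treatments, and for *Socs1*, whose upstream region alone among the 9 held a motif of the interferon-stimulated response element. Both are RefSeq sequences on GRCm38.p6 and cover the 250 bases before the start, 5′ to 3′ on the strand of the gene. The *Il2rg* region lies at chrX:101268256-101268505 and the *Socs1* region at chr16:10785537-10785786, both on the minus strand. Capitals mark CCGGAAG, a form of the ETS core, in *Il2rg*, and, in *Socs1*, 2 overlapping matches of that response element, searched as GAAA, any 2 bases and GAAA.
*Il2rg*: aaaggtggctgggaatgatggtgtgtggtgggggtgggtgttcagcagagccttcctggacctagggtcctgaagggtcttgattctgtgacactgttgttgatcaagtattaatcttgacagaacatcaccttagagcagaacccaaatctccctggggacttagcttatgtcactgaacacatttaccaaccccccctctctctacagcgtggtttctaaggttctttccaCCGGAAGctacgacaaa
*Socs1*: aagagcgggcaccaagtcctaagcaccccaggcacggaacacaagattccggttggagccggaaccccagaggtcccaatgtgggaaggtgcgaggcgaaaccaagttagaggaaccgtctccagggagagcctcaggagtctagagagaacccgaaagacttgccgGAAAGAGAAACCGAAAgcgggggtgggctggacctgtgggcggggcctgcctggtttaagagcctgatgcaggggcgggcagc
All 9 genes matched a region, and 5 motifs were searched on both strands. The regions end at the RefSeq start, which can differ from the start of the gene as counted here. The *Cish* region, at chr9:107296409-107296658, lay inside the counted gene, which starts at 107296026, so the bases before that start were not searched. The regions of *Il4ra*, *Jak1* and *Jak3* ran partly into the counted gene. The STAT-type motifs, TTC and GAA with any 3 or any 4 bases between them, were in the regions of 7.02% and 5.85% of 32851 genes and in none of these 9 regions. The NF-κB-type motif, GGG, any 2 bases and TTTCC, was in the regions of 1.41% of all genes and in none of the 9. CCGGAAG was upstream of 6.91% of all genes and the interferon-type motif of 2.98%, and these 2 motifs were added after the sequences had been seen. A match is a run of letters and no evidence of binding.

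Levels can be compared between genes only per length, here as CPM per kilobase of exon (FPKM) over the 4 sums of cells. *Il2rg* led with 93.0 FPKM on average, 50.2 with IL4+IL13 and 136 with TNF. *Stat6* followed with 34.6 (range 33.2 to 36.2), *Jak1* with 24.7 (20.8 to 29.8), *Socs1* with 15.1 (10.9 to 19.9) and *Tyk2* with 7.48 (5.68 to 9.92). No neighbours among these 5 overlapped in range, and *Tyk2* did not overlap *Il4ra*, so the order down to *Il4ra* was larger than the spread over the sums. *Il4ra* averaged 2.54 FPKM (1.85 to 3.51), *Il13ra1* 1.39 (0.972 to 2.13), *Jak3* 1.19 (0.957 to 1.54) and *Cish* 0.911 (0.188 to 1.87). The ranges of these last 4 overlapped from each to the next, though *Il4ra* was above the other 3 in each of the 4 sums. The type I partner of IL4Rα was the most abundant transcript of the 9 per length, and the type II partner was among these last 4.

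**Figure D1:**
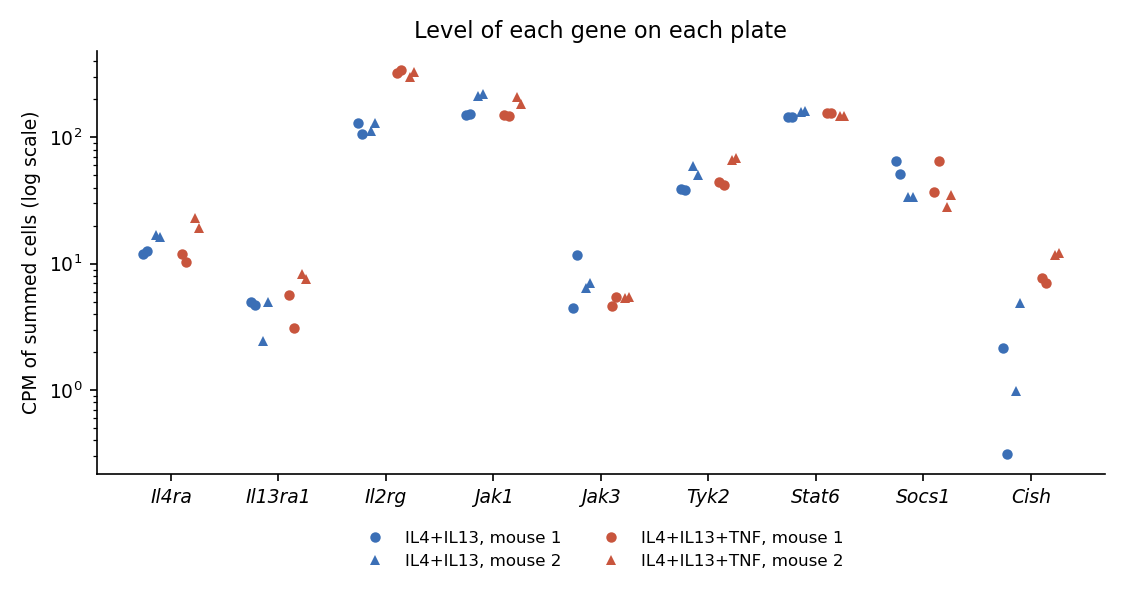
CPM of the summed cells of each plate on a log axis for the 9 genes, with IL4+IL13 in blue and IL4+IL13+TNF in red, circles for mouse 1 and triangles for mouse 2. *Il2rg* lies at 106 to 131 CPM with IL4+IL13 and at 298 to 342 CPM with TNF, and *Cish* at 0.310 to 4.91 and 7.10 to 12.2 CPM; the other 7 genes overlap between treatments.

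Among the receptor chains, *Il2rg* (ENSMUSG00000031304, mm10 chromosome X, 101264378 to 101268255, minus strand) was higher with TNF. Plates 2, 3, 4 and 5 gave 131, 106, 113 and 131 CPM with IL4+IL13, and 322, 342, 298 and 330 CPM with TNF. Every plate with TNF was above every plate without. In summed cells, more cells with a transcript and more RNA per cell cannot be told apart, and the values of single cells are given further on. Over mice the level was 120 ± 1.61 CPM with IL4+IL13 and 324 ± 13.4 CPM with TNF (SD, n = 2), 2.71 times as high (log2 fold change 1.44 ± 0.153 SE). edgeR on the 4 sums, with treatment as the only term, gave an adjusted p of 0.138, and with the mouse as a block the log2 fold change was 1.44 ± 0.102 with an adjusted p of 0.00798. Over the alternatives the adjusted p ran from 4.447e-08 with DESeq2 to 0.641, and the log2 fold change from 1.344 to 1.598.

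*Il4ra* (ENSMUSG00000030748, chromosome 7, 125552120 to 125579474), the chain common to both receptors, stood at 11.9, 12.6, 16.98 and 16.4 CPM with IL4+IL13 and at 11.9, 10.4, 23.1 and 19.1 CPM with TNF. The plates of mouse 2 were higher than those of mouse 1 under both treatments, and the treatments overlapped. The means were 14.4 ± 3.05 and 16.1 ± 7.06 CPM (SD, n = 2; log2 fold change 0.15 ± 0.385 SE, edgeR adjusted p = 0.973). *Il13ra1* (ENSMUSG00000017057, chromosome X, 36112110 to 36171259), the type II partner, stood at 4.98, 4.70, 2.43 and 4.97 CPM with IL4+IL13 and at 5.61, 3.12, 8.22 and 7.62 CPM with TNF. It was higher with TNF on 3 plates and lower on plate 3, with a log2 fold change of 0.52 ± 0.423 SE (edgeR adjusted p = 0.866). Without the TNF sum of mouse 2 it was -0.001124.

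None of the kinases bound to these receptors passed a test. *Jak1* (ENSMUSG00000028530, chromosome 4, 101152367 to 101265282), shared by both receptors, stood at 150, 154, 212 and 222 CPM with IL4+IL13 and at 151, 149, 209 and 184 CPM with TNF. It was lower in mouse 1 than in mouse 2 whatever the treatment, with a log2 fold change for TNF of -0.08 ± 0.248 SE (edgeR adjusted p = 0.978). *Tyk2* (ENSMUSG00000032175, chromosome 9, 21104068 to 21131243) stood at 39.3, 38.4, 59.8 and 50.6 CPM with IL4+IL13 and at 44.4, 42.3, 66.7 and 69.3 CPM with TNF. It was higher with TNF on each plate, but the treatments overlapped, since mouse 2 was above mouse 1 under both (log2 fold change 0.24 ± 0.310 SE, edgeR adjusted p = 0.930). The log2 fold change of *Tyk2* was 0.59 without a cell filter and -0.12 without the TNF sum of mouse 2. *Jak3* (ENSMUSG00000031805, chromosome 8, 71676296 to 71690575), the kinase of the γ chain, stood at 4.46, 11.7, 6.38 and 7.02 CPM with IL4+IL13 and at 4.66, 5.47, 5.34 and 5.47 CPM with TNF. Plate 3 with IL4+IL13 stood above the others, and the treatments overlapped. The log2 fold change of *Jak3* was -0.50 ± 0.286 SE (edgeR adjusted p = 0.775), and 1 cell held 29.5% of its fragments in mouse 1 with IL4+IL13.

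*Stat6* (ENSMUSG00000002147, chromosome 10, 127642986 to 127660957), the transcription factor at the end of the pathway, stood at 145, 146, 158 and 162 CPM with IL4+IL13 and at 157, 157, 147 and 147 CPM with TNF. The 8 plates kept within a narrow band, and the means were 153 ± 9.13 and 152 ± 7.59 CPM (SD, n = 2). The log2 fold change was -0.004252 ± 0.160 SE (edgeR adjusted p = 0.998), and over the alternatives it ran from -0.12 to 0.17. *Stat6* shares 40 exon bases, 0.909% of its exon length, with *Nab2* on the other strand, whose fragments there cannot be told apart from its own without strand.

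Of the feedback inhibitors, *Cish* was higher with TNF on each plate and *Socs1* was not. *Cish* (ENSMUSG00000032578, chromosome 9, 107296026 to 107302784) stood at 2.14, 0.310, 0.992 and 4.91 CPM with IL4+IL13 and at 7.65, 7.10, 11.7 and 12.2 CPM with TNF. The lowest plate with TNF was above the highest without, though *Cish* varied widely among the IL4+IL13 plates. In mice 1 and 2, 1 cell held 28.2% and 46.5% of its fragments with IL4+IL13, and 11.3% and 8.67% with TNF. The means were 2.02 ± 1.14 and 9.68 ± 3.29 CPM (SD, n = 2), 4.81 times as high with TNF (log2 fold change 2.27 ± 0.542 SE, edgeR adjusted p = 0.362). With the mouse as a block the log2 fold change was 2.35 ± 0.271 with an adjusted p of 0.0193, and over the alternatives the adjusted p ran from 0.00072 to 0.774. The log2 fold change was 1.77 without the IL4+IL13 sum of mouse 1, 3.01 without that of mouse 2 and 1.87 without the TNF sum of mouse 2. *Socs1* (ENSMUSG00000038037, chromosome 16, 10782240 to 10785536) stood at 64.7, 50.9, 33.7 and 34.0 CPM with IL4+IL13 and at 37.2, 64.5, 28.1 and 35.0 CPM with TNF. Its plates of mouse 1 were above those of mouse 2 within each treatment, and its log2 fold change for TNF was -0.12 ± 0.379 SE (edgeR adjusted p = 0.980).

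No member passed an adjusted p of 0.05 in edgeR with treatment alone (0 of 9; 2 of 9 had an unadjusted p under 0.05), a test that called 0.00587% of the 17034 genes tested and gave 1380 an unadjusted p under 0.05. With the mouse as a block, *Il2rg* and *Cish* passed, both higher, beside 1.94% of all genes called higher in that fit (651 genes in both directions). DESeq2 called both of them higher too, beside 1.79% of all genes. On counts simulated without a mouse effect, edgeR recovered the size of the changes. More of its calls were false than the adjusted p states, with the block more so than without it. Lacking a mouse effect, these counts cannot show how often calls with the block are false in paired sums. On the plates, 3 of 9 members were higher with TNF on 4 of 4, beside 18.7% of all genes, and 0 of 9 were lower on 4 of 4, beside 16.8%. For 2 of 9 members all plates with TNF were above all plates without, beside 6.16% of all genes. The median log2 fold change of the 9 was 0.15 and that of all tested genes 0.004. Where the spike-ins set the scale, the median of all genes was 0.15, a shift that turned the sign of *Jak1*, *Stat6* and *Socs1*.

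**Figure D2:**
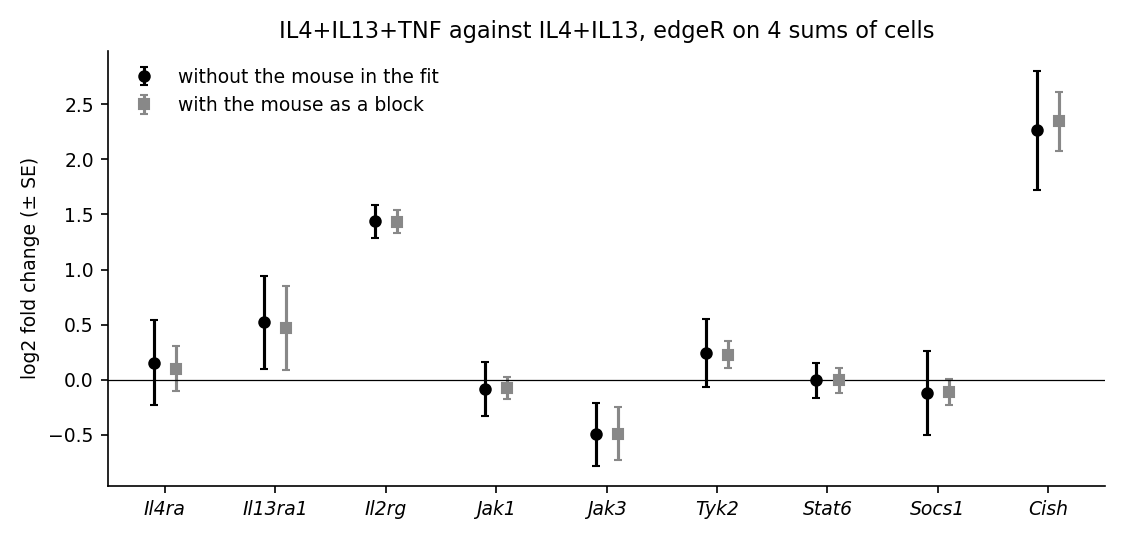
Log2 fold change of IL4+IL13+TNF against IL4+IL13 with its SE for the 9 genes, from edgeR on the 4 sums, without the mouse in the fit (black circles) and with the mouse as a block (grey squares). *Il2rg* at 1.44 and *Cish* at 2.27 lie farthest from 0; without the block the other 7 genes lie between -0.50 and 0.52.

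The single cells showed how *Il2rg* differed. Each cell was thinned to 339000 fragments, which left 1250 cells of equal depth, and the median cell of mouse 1 then went from 91.5 CPM with IL4+IL13 to 286 CPM with TNF, and that of mouse 2 from 76.7 to 274 CPM. The whole distribution lay higher: the 10th percentile was 0 CPM in both mice with IL4+IL13 and 118 and 69.3 CPM with TNF, and the 90th percentile 289 and 348 against 565 and 587 CPM. With TNF, 5.94% and 10.8% of the cells lay below the median cell without TNF. Between the rows of wells, medians ran from 8.85 to 205 CPM with IL4+IL13 and from 195 to 394 CPM with TNF, and within plates 3, 4 and 5 no row of one treatment reached the other. On plate 2 they overlapped. There the row with IL4+IL13 next to the TNF rows had a median of 205 CPM, and the lowest row with TNF 198 CPM.

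*Cish* differed in few cells. Most of its CPM came from the 5% of cells with the highest level, 98.3% and 98.9% with IL4+IL13 and 84.7% and 68.6% with TNF. These values are largely set by how few cells held a *Cish* fragment. Before thinning these were 6.16% and 6.91% of cells with IL4+IL13 and 12.1% and 20.3% with TNF. Among the cells with a *Cish* fragment, the median was 5.90 and 2.95 CPM with IL4+IL13 and 44.3 and 35.4 CPM with TNF. The lowest nonzero level at this depth is 2.95 CPM, so the IL4+IL13 medians were at or near the floor. They came from 19 and 22 cells, and those with TNF from 36 and 61. Both the number of cells with the transcript and the level in those cells were higher with TNF in both mice.

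**Figure D3:**
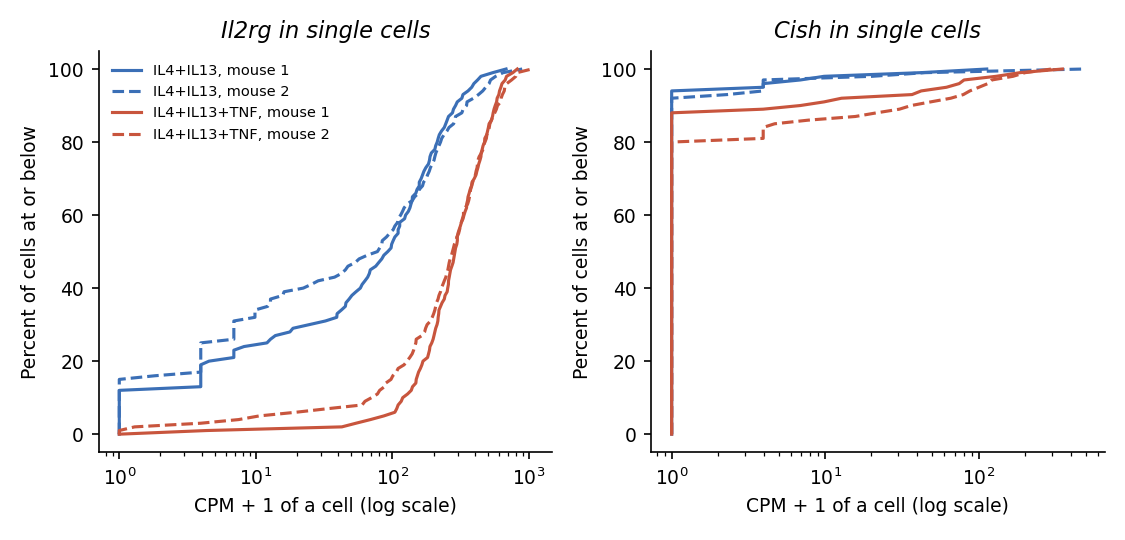
Percent of cells at or below each level of *Il2rg* (left) and *Cish* (right) after thinning to equal depth, on a log axis of CPM + 1, with IL4+IL13 in blue and IL4+IL13+TNF in red, mouse 1 as a solid and mouse 2 as a broken line. The *Il2rg* curves shift as a whole, with medians of 91.5 and 76.7 CPM against 286 and 274 CPM, and the *Cish* curves part only in their upper tail.

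At equal depth, *Jak1*, *Stat6* and *Il2rg* were found in most cells, *Tyk2* and *Socs1* in an intermediate share, and *Il4ra*, *Jak3*, *Il13ra1* and *Cish* in a minority. With 2 mice per treatment, the exact two-sided permutation test used for the shares, which leaves the pairing by mouse aside, cannot give a p below 0.333 and so cannot pass a threshold of 0.05. For comparison, *Cd3e*, a T cell gene that macrophages should lack, was found in 0.327% to 1.2% of cells at the same depth, though *Trac* was found in up to 20.2% at less than 1 CPM.

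*Il2rg* was found in 87.4% (95% exact interval 83.3 to 90.7) and 83.8% (79.2 to 87.8) of cells with IL4+IL13, and in 99.3% (97.6 to 99.9) and 97.7% (95.3 to 99.1) with TNF (exact permutation p = 0.333). Asking for at least 5 fragments widened the gap from 12.9 to 28.7 percentage points. *Cish* was found in 5.72% (3.48 to 8.79) and 7.12% (4.52 to 10.6) of cells with IL4+IL13 and in 11.9% (8.46 to 16.1) and 19.9% (15.6 to 24.9) with TNF (exact permutation p = 0.333). With at least 5 fragments these shares were 1.51% and 2.27% against 7.92% and 13.4%, so the order of the treatments held in both mice.

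*Il4ra* was found in 26.5% and 31.7% of cells with IL4+IL13 and in 32.0% and 37.9% with TNF, so its share was higher with TNF by 5.85 points while its CPM did not keep 1 direction. *Il13ra1* was found in 6.93% and 10.0% against 11.9% and 16.99%, and *Tyk2* in 59.6% and 71.5% against 72.9% and 78.8%. *Stat6* was found in 91.6% and 87.4% against 95.7% and 94.1%, higher with TNF in both mice, while its CPM was not. In mouse 2 the rise of *Stat6* came from plate 4 (81.5% against 95.2%), while plate 5 gave 93.9% against 93.2%. The exact permutation p was 0.333 for *Il4ra*, *Il13ra1*, *Tyk2* and *Stat6*. For *Jak1* (95.2% and 97.1% against 97.7% and 95.4%), *Jak3* (18.98% and 17.2% against 14.2% and 14.7%) and *Socs1* (58.1% and 36.2% against 55.8% and 37.9%) the exact permutation p was 0.667, 0.333 and 1. The share of *Socs1* cells was higher in mouse 1 than in mouse 2 under either treatment. Cells with TNF held more detected genes in general. Before thinning, the median kept cell had 7874 and 7431 detected genes with IL4+IL13 and 8161 and 7859 with TNF. The change in share over all genes was not computed, and the part of this general difference in the shares of the 9 genes was not tested.

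**Figure D4:**
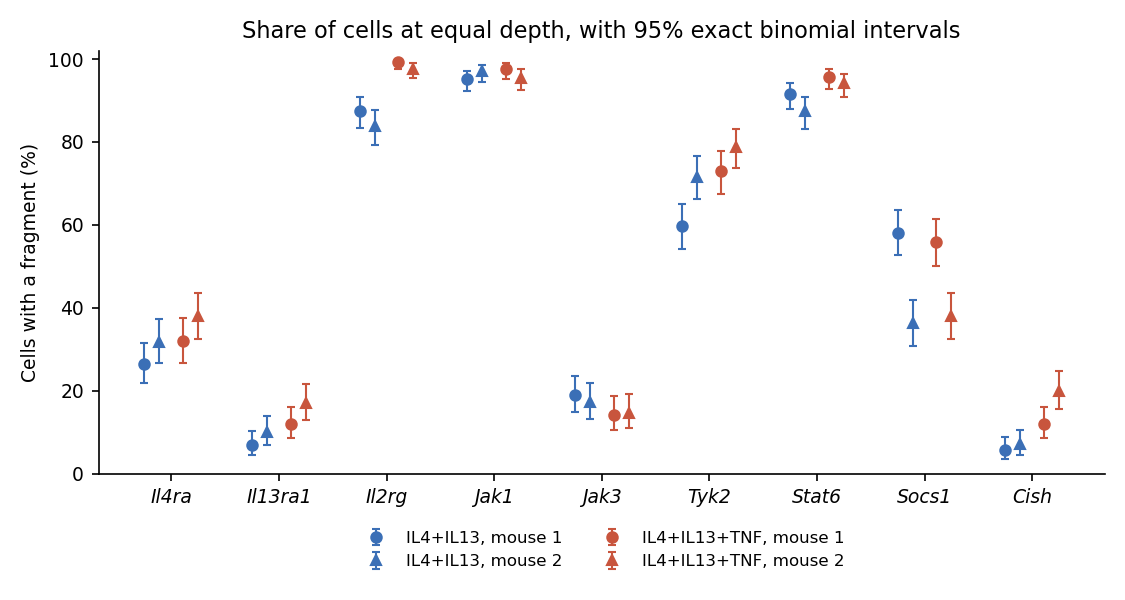
Percent of cells in which each gene had a fragment at equal depth, with IL4+IL13 in blue and IL4+IL13+TNF in red, circles for mouse 1 and triangles for mouse 2, and 95% exact binomial intervals that cover counting error only. *Il2rg* goes from 87.4% and 83.8% to 99.3% and 97.7%, and *Cish* from 5.72% and 7.12% to 11.9% and 19.9%.

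The rarer chain was *Il4ra* in the type I pair and *Il13ra1* in the type II pair. *Il4ra* and *Il2rg*, the type I pair, were found together in 21.4% and 27.5% of cells with IL4+IL13 and in 31.7% and 36.9% with TNF. The products of the single shares were 23.2%, 26.6%, 31.8% and 37.0%, so the chains were found together about as often as their own shares would give. *Il4ra* and *Il13ra1*, the type II pair, were found together in 1.21% and 3.56% of cells with IL4+IL13 and in 5.61% and 6.54% with TNF, against products of 1.84%, 3.18%, 3.80% and 6.44%. A cell without a fragment is not a cell without the receptor, since a scarce transcript is often missed.

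The 6 M2 signature genes, with which the pathway was compared, were lower with TNF on 4 of 4 plates, beside 16.8% of all genes. *Retnla*, which encodes a secreted M2 protein, was at 83.8 and 490 CPM with IL4+IL13 and at 11.2 and 12.1 CPM with TNF (log2 fold change -4.62 ± 0.902 SE, edgeR adjusted p = 0.277, with the mouse as a block 0.035). *Clec10a* (-1.52), *Mgl2* (-0.66), the mannose receptor gene *Mrc1* (-0.88), *Il10* (-2.14) and *Apoe* (-1.68) were the others, and 5 of the 6 passed with the block, *Mgl2* being the exception, beside 1.88% of all genes called lower in that fit. The study names these 6 as its M2 signature in its account of these cells and gives no basis for the choice, so their direction is not taken as independent evidence.

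Over cells of 1 mouse and treatment, the members were barely related to the mean standardized level of the 6 M2 genes. Spearman's rho, averaged over the 4 groups of 303 to 332 cells, was between -0.01172 and 0.0265 for 8 members, *Il2rg* (0.001995) and *Stat6* (0.012) among them, and 0.0859 for *Socs1* (range -0.006309 to 0.159). For all genes found in at least 25% of cells the group medians ran from 0.00799 to 0.0347, with a 5th percentile between -0.1247 and -0.09674. The 95th percentile was between 0.127 and 0.171, and each of the 9 genes lay between these percentiles in each group. *Il13ra1*, *Jak3* and *Cish* were found in fewer than 25% of cells and are not in the set compared. *Il4ra* gave 0.145 in mouse 1 with IL4+IL13, where its cells had a median M2 score 0.169 above that of the other cells, and -0.03592, 0.00739 and -0.0102 in the other groups. All correlations are between genes of the same libraries, thinned to equal depth. Adjusted for the number of detected genes, the mean rho was 0.0821 for *Socs1* and between -0.0263 and 0.0111 for the other 8 members. The values are a description.

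Single pairs were somewhat larger. *Il2rg* and *Mrc1* had a rho of -0.1255 (from -0.2081 to -0.0841), negative in all 4 groups, and *Socs1* and *Mgl2* one of 0.123 (from 0.0942 to 0.194), positive in all 4. Of 54 pairs of a member and an M2 gene these 2 were the largest in size on average. Against the mean of 20 other IL4 target genes, *Socs1* had a rho of 0.214 (0.167 to 0.254), *Cish* 0.126 (-0.008454 to 0.182) and *Il2rg* 0.125 (0.0432 to 0.269), while *Il4ra* had -0.02406 and *Stat6* 0.0195. For these targets the 95th percentile of the genes found in at least 25% of cells was 0.123 to 0.148. *Socs1* passed it in 4 of 4 groups, *Cish* in 3 and *Il2rg* in 1, though *Cish* was found in fewer cells and is not in that set. In sparse counts, values this weak are no more than a description.

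**Figure D5:**
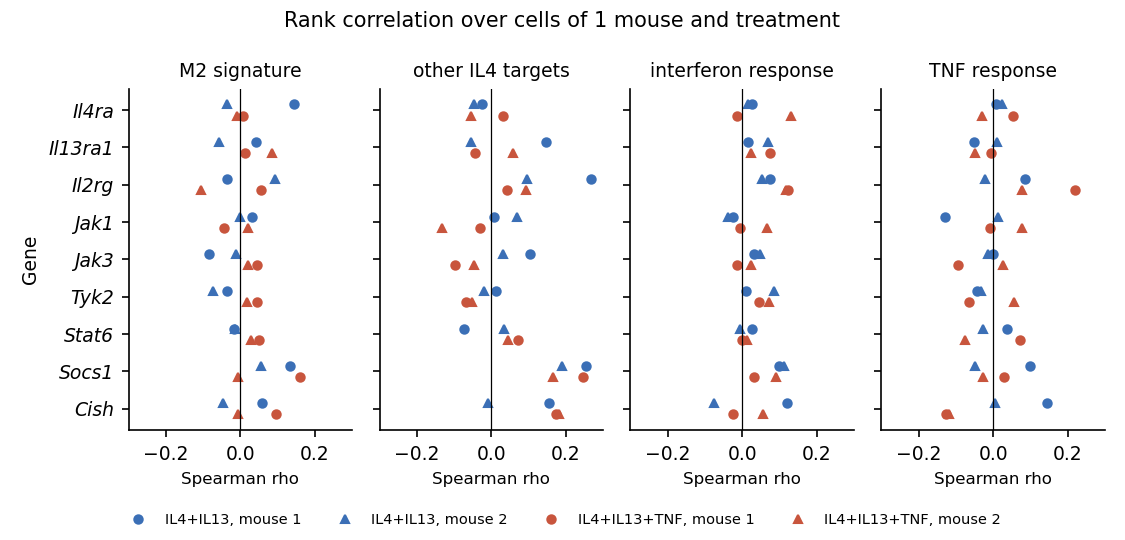
Spearman's rho over cells between each gene (rows) and the mean standardized level of 6 M2 genes, 20 other IL4 targets, 10 interferon response genes and 10 TNF response genes (panels), 1 point per mouse and treatment, IL4+IL13 in blue, IL4+IL13+TNF in red, circles for mouse 1 and triangles for mouse 2. Points scatter around 0 for most genes; *Socs1* lies at 0.167 to 0.254 with the other IL4 targets.

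The genes most like each member over cells were sought among the 10098 found in at least 25% of cells, by the mean rho over the 4 groups, for the 6 members as widely found. For *Il2rg* they were *Ctsz*, a lysosomal protease (0.244), *H2-DMa*, a chaperone of MHC class II loading (0.230), and *Lsp1* (0.224). For *Socs1* they were *Ier3*, an immediate early gene (0.200), *Irf4*, a transcription factor of M2 macrophages and itself 1 of the 20 other IL4 targets (0.196), and *Nfil3* (0.183). The nearest genes of *Il4ra* (*Rnf114*, 0.114), *Jak1* (*Efhd2*, 0.132), *Tyk2* (*Sec24a*, 0.120) and *Stat6* (*Aldh16a1*, 0.107) reached 0.132 at most.

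Other genes of the pathway were counted by the direction they took on the plates. Of the other 7 JAK and STAT genes 3 were higher on 4 of 4 plates and 1 lower, beside 18.7% and 16.8% of all genes, and the median log2 fold change was -0.12. *Jak2*, a kinase of many cytokine receptors, was at 26.6 and 47.0 CPM with IL4+IL13 and at 46.9 and 105 CPM with TNF (log2 fold change 1.05 ± 0.482 SE, edgeR adjusted p = 0.681, with the mouse as a block 0.0295), and *Stat4* had a log2 fold change of 1.82 at about 1 to 4 CPM. Of the other 6 SOCS genes 1 was higher on 4 of 4 plates and 1 lower. *Socs2*, which like *Cish* is a classical STAT5 target, was at 1.78 and 2.11 CPM with IL4+IL13 and at 11.5 and 25.04 CPM with TNF (log2 fold change 3.23 ± 0.468 SE, edgeR adjusted p = 0.205, with the block 0.0135), and *Socs6* had -0.61.

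Among 6 receptor chains that partner the γ chain, 3 were abundant enough to test. *Il21r*, the IL21 receptor chain, was at 5.48 and 4.70 CPM with IL4+IL13 and at 12.5 and 17.7 CPM with TNF (log2 fold change 1.57 ± 0.299 SE, edgeR adjusted p = 0.271, with the block 0.0456). *Il7r*, the most abundant of them, was at 134 and 227 against 199 and 235 CPM (0.26 ± 0.290 SE, adjusted p = 0.917). *Il2ra*, *Il2rb* and *Il9r* stayed below 0.4 CPM in all sums.

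Of the ligands and the decoy receptor, *Il13* and *Il13ra2* were below 0.2 CPM, and *Il4* was at 1.98 and 3.0 CPM with IL4+IL13 and at 1.03 and 1.56 CPM with TNF (log2 fold change -0.94 ± 0.441 SE, edgeR adjusted p = 0.693). Of 6 phosphatases that act on the pathway, 2 were higher and 3 lower on 4 of 4 plates, beside 18.7% and 16.8% of all genes. *Inpp5d* (SHIP1) had a log2 fold change of -0.60 and *Ptpn2* of 0.53. The same shares of all genes apply to the counts of the IRS branch and the cofactors. Of 7 tested genes of the IRS branch, which links IL4Rα to PI3 kinase, 1 was higher and 2 lower, with *Irs2* at 11.5 and 22.6 CPM against 6.01 and 6.33 CPM (-1.47 ± 0.390 SE, edgeR adjusted p = 0.413) and *Shc1* at 0.48. Of 9 STAT6 cofactors and PIAS genes 1 was higher and 4 lower; the acetyltransferase gene *Ep300* had a log2 fold change of -0.70 (edgeR adjusted p = 0.709, with the block 0.048) and *Ncoa1* of -0.54. In these 4 groups the block changed the call of *Ep300* alone.

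Of the other IL4 targets, 10 of 18 tested were higher with TNF on 4 of 4 plates and 4 lower, with a median log2 fold change of 0.82. Of all genes, 18.7% were higher and 16.8% lower on 4 of 4 plates, which applies to the next 2 lists as well. *Ccl22* was at 1.07 and 0.663 CPM against 45.6 and 378 CPM and *Ccl17* at 0.115 and 0.278 against 3.02 and 72.3 CPM; both encode ligands of CCR4, and with the block their adjusted p was 0.0279 and 0.0211. Of 10 interferon response genes 2 were higher on 4 of 4 plates, *Gbp2* (log2 fold change 2.01, with the block adjusted p = 0.00743) and *Irf1* (0.38). Of 10 TNF response genes 8 were higher on 4 of 4 plates, and *Clec4e*, at 19.1 and 21.7 CPM against 664 and 721 CPM, was the single gene of the table past the threshold in edgeR without a block (log2 fold change 5.09 ± 0.187 SE, adjusted p = 0.0203).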

How the data were processed

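Single live BMDMs were sorted into 384-well plates and profiled with Smart-seq2, without molecular identifiers, so PCR copies are counted. The authors aligned fragments to mm10 with gsnap and counted uniquely mapped fragments per Ensembl 98 gene with featureCounts 1.6.3, without strand; the deposited counts are whole numbers and not normalized. The 92 spike-in rows stayed out of totals, and 8 columns that match no label were not used. Exon lengths and positions came from the count table.

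Wells were left out if they lay more than 3 median absolute deviations below their plate's median in log fragments or log detected genes, or above it in mitochondrial or spike-in share (1386 of 1524 kept), and shares and correlations used 1250 cells thinned to 339000 fragments. No doublet caller was run. For each mouse and treatment the counts of all kept cells were added up, and the 4 sums were compared in edgeR 4.0.16 (TMM, quasi-likelihood, Benjamini-Hochberg, threshold 0.05) in R 4.3.3. Alternatives were the mouse as a block, DESeq2 1.42.0, limma 3.58.1 on log2(CPM + 1) of the mean cell, and other scalings, filters and left-out sums. Same-numbered sums come from 1 mouse and so are paired, and their deviations correlated with r = 0.568 over 17034 genes. Shares have 95% Clopper-Pearson intervals, computed with scipy 1.17.1.

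Besides the 9 members and the 6 M2 genes, the text names genes of each other list by a rule. It takes those past the threshold or, where there are none, the 2 with the largest change among those moving 1 way on 4 of 4 plates. *Zbtb46*, *S100a9* and *Lum* of the cell type lists, which the rule also picks, are left out. For each member found in at least 25% of cells the 3 genes with the highest mean rho were sought. For *Il4ra*, *Jak1*, *Tyk2* and *Stat6* only the nearest is named. *Il7r*, *Il2ra*, *Il2rb*, *Il9r*, *Il13*, *Il13ra2*, *Cd3e*, *Trac*, *Csf1r*, *Cd68*, *Adgre1* and the B cell markers were added after their values were seen. The members and lists were chosen with earlier results of these data known.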

Additional observations from a re-analysis of the deposited data

Results flagged for a closer look

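Within a treatment, a plate was singled out where its gap to the next plate took up most of the range of the 4 plates, which chance gives in about 1 of 20 groups. Each of the 9 genes makes 1 such group under each treatment, so a flag can come by chance alone. With IL4+IL13, *Il13ra1* was lowest on plate 4, at 2.43 CPM, while the other 3 plates lay between 4.70 and 4.98 CPM. With IL4+IL13+TNF, *Jak3* was lowest on plate 2, at 4.66 CPM, while the others lay between 5.34 and 5.47 CPM.

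*Stat6* was higher with TNF on both plates of mouse 1 (log2 ratio 0.11 over its cells) and lower on both plates of mouse 2 (-0.12). The difference between the mice was not tested, and each ratio is smaller than the shift of 0.15 that spike-in scaling makes in the median of all genes.

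Wells whose labels name no mouse entered no comparison. The well of plate 3 held more than 3 fragments of 4 members, the well of plate 4 of 5 members and the well of plate 5 of 1 member.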

How the results depend on the processing

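The number of genes past the threshold in edgeR, 1 of 17034, was 651 with the mouse as a block, 598 with DESeq2, 12 with spike-in scaling, 2 with thinned cells and 4 to 30 with 1 of the 4 sums left out, where the spread of a lone sum is taken from the 2 sums of the other treatment. The log2 fold changes of *Il2rg* (1.44 with the block, 1.43 with DESeq2) and *Cish* (2.35 and 2.25) passed in these fits, and the block changed no other call among the 9 members. With 1 sum left out, *Il4ra* ran from -0.38 to 0.54, *Il13ra1* from -0.001124 to 0.90, *Jak1* from -0.32 to 0.18, *Tyk2* from -0.12 to 0.53, *Stat6* from -0.06951 to 0.06071 and *Socs1* from -0.53 to 0.32. The sign turned for *Il4ra* with limma (-0.06445), for *Jak1* (0.08894), *Stat6* (0.17) and *Socs1* (0.009191) with spike-in scaling, for *Stat6* (0.01736) without its 5 top cells and for *Socs1* (0.01776) without *Ccr7* cells, both added after seeing the data; the cause was not tested. Without their 5 top cells *Il13ra1* was 1.01 and *Cish* 3.05, where leaving out equally many cells takes a larger part of the fewer IL4+IL13 cells with the transcript.

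The difference in share of cells moved by more than the spread between mice for *Il4ra* (6.66 points unthinned, 8.56 at 169500 fragments, 7.13 with at least 5 fragments), *Il2rg* (9.47, 17.9 and 28.7), *Jak3* (-0.9625 at 169500 and -0.2923 with at least 5 fragments) and, with at least 5 fragments, *Il13ra1* (4.50), *Jak1* (3.69) and *Stat6* (7.62). The pairs then fell to 15.2% (type I) and 1.47% (type II) of cells. The exact permutation test of shares cannot pass with 2 mice per treatment.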

Other observations

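Of the 4 samples that the labels put with no mouse, 3 have a column in the table. The well of plate 3 had 279461 fragments, with 82.3 CPM of *Il2rg*, 186 CPM of *Jak1*, 122 CPM of *Stat6* and no fragment of *Il4ra*, *Jak3*, *Socs1* or *Cish*. The well of plate 4 had 354874 fragments, with 251 CPM of *Il2rg*, 237 CPM of *Jak1*, 36.6 CPM of *Stat6* and 11.3 CPM of *Il4ra*. The well of plate 5 had 87198 fragments, with 436 CPM of *Il2rg*, from 38 fragments, and 22.9 CPM of each of *Jak1*, *Tyk2*, *Socs1* and *Il13ra1*, from 2 fragments each. These wells had 10802, 11121 and 8314 detected genes, while the medians of the kept cells were 7431 to 8161, and the labels do not say how many cells they held.

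Several exons overlap those of other genes, and counting without strand does not separate genes on opposite strands. On the same strand, the predicted gene *Gm20489* shares 30.5% of the exon bases of *Il2rg* and *Insl3* shares 7.55% of those of *Jak3*. *Gm20489* had no fragment in the kept cells and *Insl3* a mean of 0.0800 CPM. How fragments in the shared bases were assigned was not tested.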
